A study of Mus musculus with 96 samples.

Results

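Mitochondrial ribosomal protein genes, named Mrpl for the large and Mrps for the small subunit of the ribosome inside mitochondria, were examined in 96 single mouse leukemia cells. The members were the gene symbols that begin with Mrpl or Mrps followed by a digit and whose level averaged at least 1 TPM over all cells, TPM being transcript abundance scaled to a total of 1000000 in each cell. The table held 77 such symbols among 23955, and all 77 passed. The lowest means were those of Mrps30 (12.2 TPM), Mrpl17 (16.2 TPM) and Mrpl38 (16.8 TPM), and 0 candidates lay under the threshold. The members were thus chosen by their mean levels, which are given below as a description. By position in the ribosome, 50 members belong to the large subunit, including Mrps30 and Mrps18a despite their symbols, and 26 to the small subunit. Mrps36 belongs to neither, since its product is part of the 2-oxoglutarate dehydrogenase complex.

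The cells were splenocytes selected for c-Kit (CD117), the receptor of stem cell factor, of 2 mice taken when moribund from acute myeloid leukemia, and each mouse gave 48 cells. Both mice had the genotype Flt3ITD/ITD;Dnmt3afl/- with MxCre, an interferon-inducible Cre that acts in blood cells and in some other tissues, so no comparison here is one of genotype. The cells of each mouse came from a separate capture round on a Fluidigm C1 chip, and the column names of the table divided them the same way. Mouse and capture round cannot be told apart.

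The mitochondrial ribosome translates the few messages of the mitochondrial genome, which code for core subunits of the respiratory chain and of ATP synthase. Its RNA is made in the mitochondrion, but its proteins are encoded in the nucleus, made in the cytosol and imported. Some members have counterparts in bacterial ribosomes, and others are found only in mitochondria. Acute myeloid leukemia cells are known to rely on mitochondrial translation.

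Cells were divided by the rule into 4 states at 1000 TPM. Class II-high cells had H2-Aa, a chain of the class II antigen-presenting molecule (14 cells of mouse 1, 20 of mouse 2). Neutrophil-high cells had S100a8, a protein of neutrophils (1 and 10), and Mpo-high cells had Mpo, the myeloperoxidase of granulocyte-monocyte progenitors (13 and 12). The rest had none of them (20 and 6). A cell above the threshold for more than 1 marker, of which there were 1 in mouse 1 and 3 in mouse 2, went to H2-Aa before S100a8 and to S100a8 before Mpo. Since states were cut from expression in the same cells and each mouse is 1 animal, no difference between states or mice was tested, and every difference below is a description.

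By their medians over cells, the marker lists were highest in the states named for them, apart from the lone neutrophil-high cell of mouse 1. Cells of other states overlapped with them. The summed level of 10 dendritic cell markers ranged from 61166 to 98828 TPM in class II-high cells of mouse 1 and from 21338 to 114495 TPM in those of mouse 2, against at most 1186 and 200.2 TPM in the rest. Mpo-high cells reached 2054 and 953 TPM of these, and 1 neutrophil-high cell of mouse 2 had 9823 TPM, where the next had 152 TPM. The 8 late neutrophil markers had a median sum of 423980 TPM in neutrophil-high cells of mouse 2. The lone neutrophil-high cell of mouse 1 had 1578 TPM of these and 101771 TPM of the 5 progenitor markers, so its leading genes went against its state, and it enters no comparison. The progenitor markers had median sums of 9504 (mouse 1) and 13545 TPM (mouse 2) in Mpo-high cells. In the rest the medians were 681 and 506 TPM, with highest sums of 4446 and 724 TPM. Neutrophil-high cells of mouse 2 had a median of 1712 TPM and reached 71328 TPM, above the 40644 TPM that Mpo-high cells of that mouse reached. The rest held cells with erythroid markers, whose sum over 8 genes had a median of 1414 (mouse 1) and 395 TPM (mouse 2), and of these genes 3 and 5 genes were below 1 TPM in every cell. The sum of 5 basophil and mast cell markers reached 7403 (mouse 1) and 2835 TPM (mouse 2) in the rest and 5651 and 6482 TPM in Mpo-high cells, with medians of 171 and 89.2 TPM and of 230 and 199 TPM, while class II-high cells had at most 3.20 and 5.41 TPM. Of these genes Prss34 was below 1 TPM in every cell of each of these groups. The part of erythroid, basophil and mast cell markers in the differences below was not tested. Lymphoid markers were near 0 in every state, with a highest sum of 119 TPM in 1 group, the rest of mouse 1. Kit was detected, meaning 1 TPM or more, in 17 of 20 and 5 of 6 cells of the rest, in 12 of 13 and 10 of 12 Mpo-high cells, in 10 of 14 and 12 of 20 class II-high cells, and in 4 of 10 neutrophil-high cells of mouse 2. The number of detected genes ranged from 1604 to 6018 per cell. TPM keeps no read depth, so the depth behind each value is unknown, and this number stands in its place.

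The promoters of the members show one feature the rule did not use. Promoter windows from 250 bases before to 50 bases after the start site, from RefSeq (GRCm38.p6), were found for 68 protein-coding members. A total of 11 short strings were searched on both strands, and the 3 set in capitals here were picked after the shares of all 11 had been seen. A gene was counted when any of its windows held the string, and some genes had several start sites. CCGGAAG, a core bound by ETS factors such as the nuclear respiratory factor Gabp, was in 36.8% of these members. It was in 24.1% of 5438 protein-coding genes averaging at least 10 TPM and 12.9% of all 17491. GCGCATGC, part of the Nrf1 motif, was in 11.8%, 7.13% and 3.93%. AAGATGGC, a Yy1 core, was in 17.6%, 6.18% and 3.57%. At least 1 of these 3 strings was in 37 of the 68 members (54.4%), against 33.6% of the genes averaging at least 10 TPM. CCGGAAGT, a longer form of the ETS string, was in 17.6% of the members, against 11.1% of the genes averaging at least 10 TPM. Longer forms of the Nrf1 and Yy1 strings were in 4.41% against 2.78% and in 7.35% against 2.21%. TGCGCA, which overlaps the Nrf1 motif, was in 29.4% against 17.9%, and a 12-letter form of the Znf143 motif in 5.88% against 1.21%. GGGCGG, the Sp1 box, was less frequent in the members (50% against 68.8%), as were the E-box CACGTG (7.35% against 12.5%) and TATAAA (7.35% against 8.66%). A match is a string of letters and not a measured binding site.

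The stretches below run from 120 bases before to 30 bases into the transcript and are shown because these members come up in the comparisons. Mrpl33 had the highest mean level. Mrpl34 had the largest shared difference from the rest in class II-high cells, and that of Mrps18a differed in sign between the mice. Mrpl36 was among the 5 members with the largest shared positive differences from the rest in Mpo-high cells. Capitals mark the 3 strings on either strand. They lie at chr5:31613831-31613980 (+), chr8:71464806-71464955 (+), chr17:46110884-46111033 (+) and chr13:73330889-73331038 (+).
Mrpl33: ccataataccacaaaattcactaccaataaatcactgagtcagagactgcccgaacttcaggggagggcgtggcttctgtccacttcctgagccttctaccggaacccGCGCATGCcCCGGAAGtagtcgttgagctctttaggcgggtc
Mrpl34: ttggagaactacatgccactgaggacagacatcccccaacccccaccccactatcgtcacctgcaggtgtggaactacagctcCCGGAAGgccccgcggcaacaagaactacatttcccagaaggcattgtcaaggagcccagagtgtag
Mrps18a: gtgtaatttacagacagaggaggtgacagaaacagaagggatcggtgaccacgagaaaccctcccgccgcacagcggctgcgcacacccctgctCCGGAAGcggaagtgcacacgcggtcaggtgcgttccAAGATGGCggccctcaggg
Mrpl36: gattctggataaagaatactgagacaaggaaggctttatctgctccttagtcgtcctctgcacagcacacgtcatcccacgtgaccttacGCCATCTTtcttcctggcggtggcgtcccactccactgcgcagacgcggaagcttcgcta

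The members were short genes of moderate level. Their median length was 2255 exonic bases in 5 exon blocks, against 4195 bases and 9 blocks for the genes averaging at least 10 TPM. Their median mean level was 69.8 TPM, against 36.2 TPM for those genes. It was below the 288 TPM of 79 genes of oxidative phosphorylation, the 192 TPM of 39 proteasome genes and the 1453 TPM of 100 genes of the cytosolic ribosome. On this per-length scale, large-subunit members had a median of 76.8 TPM and small-subunit members 53.997 TPM. In a split made from the symbol numbers, the 47 members put with bacterial counterparts had a median of 89.7 TPM. The 29 put with those found only in mitochondria had 45.9 TPM. The split is coarse, and it counts Mrpl47, which has a bacterial counterpart, among the 29.

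Levels differed widely among genes whose products join 1 particle. Mrpl33 (chromosome 5, 31596935 to 31664384, GRCm38) had a mean of 393 TPM and Mrpl42 (chromosome 10, 95480805 to 95501940) of 391 TPM. They were followed by Mrpl18 (318 TPM), Mrps18c (309 TPM), Mrps21 (241 TPM), Mrps33 (229 TPM), Mrpl20 (221 TPM), Mrpl30 (181 TPM), Mrpl23 (172 TPM) and Mrpl24 (156 TPM). Of these 10, 7 belong to the large subunit. Mrpl33 shares 261 exonic bases with Gm43809 and Mrps18c shares 250 with Gm43511, each on the same strand, and neither Gm gene has TPM values here. Mrpl18 shares 141 exonic bases with Tcp1 and Mrpl24 shares 594 with Rrnad1, each on the opposite strand. The kit does not mark strand, so reads there cannot be assigned by strand.

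In single cells most members were seen intermittently. Of all member values, 45.05% were exactly 0. The members were detected in a median of 46 of the 96 cells, and 42 of the 77 in fewer than 48 cells. Mrpl33 was detected in the most, 44 of 48 cells of mouse 1 (91.7%, exact Clopper-Pearson 95% interval 80.02 to 97.7) and 40 of 48 of mouse 2 (83.3%, 69.8 to 92.5). These intervals cover the counting of cells only. Mrpl35 was in 83 cells, although its mean was only 37.003 TPM. Mrpl51 was in 79, and Mrpl18 and Mrpl42 in 78 each. Mrps6 was in the fewest, 11 cells of mouse 1 and 6 of mouse 2. Across the members, mean level and the number of cells had a Spearman correlation of 0.69 (n = 77 genes, from the same cells).

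The number of members detected in a cell went with the number of all genes detected. The Spearman correlation with the other genes' number was 0.88 over the 48 cells of mouse 1 and 0.91 over those of mouse 2. Both quantities come from the same library. Of the other gene sets, oxidative phosphorylation had 0.82 and 0.92, the proteasome 0.82 and 0.88, and the cytosolic ribosome 0.69 and 0.81. The relation was present within states as well, at 0.75 and 0.62 in class II-high and 0.90 and 0.90 in Mpo-high cells. In cells with fewer genes than the mouse's median, 39.6% (mouse 1) and 31.8% (mouse 2) of the members were detected. In the other cells it was 64.9% and 62.99%. For all genes averaging at least 10 TPM, the shares went from 36.2% and 30.7% to 50.8% and 46.2%.

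**Figure D1:**
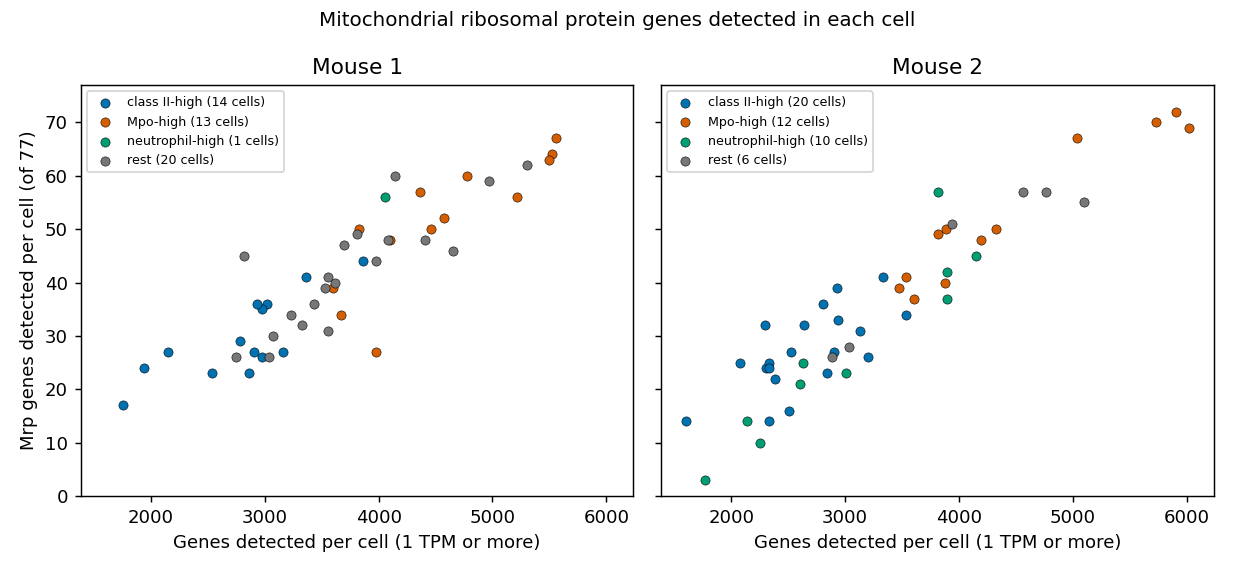
Each point is 1 cell, with its count of detected genes (at least 1 TPM) on the x axis and its count of detected Mrp genes, of 77, on the y axis, by mouse and coloured by state. Both numbers move together (Spearman 0.88 and 0.91), and class II-high cells lie toward the lower left.

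Class II-high cells held fewer members than the rest of their mouse. The number detected was 17 to 44 (median 27) in mouse 1, against 26 to 62 (median 42.5) in the rest. In mouse 2 it was 14 to 41 (median 26.5), against 26 to 57 (median 53). The groups overlapped in both mice. The median number of detected genes was lower too, 2922 against 3588 in mouse 1 and 2581 against 4252 in mouse 2. The summed level of the 77 members had a median of 6596 TPM against 8244 TPM in mouse 1. In mouse 2 it was 4830 TPM against 9503 TPM. The 10 most abundant genes held a median of 22.4% and 24.2% of the TPM in class II-high cells, against 8.99% and 9.53% in the rest. With those genes left out and the TPM rescaled, the medians were 8482 against 9055 TPM in mouse 1 and 6279 against 10504 TPM in mouse 2. A class II-high cell of mouse 2 with 319 TPM in all had 16 members, and it was also above 1000 TPM for Mpo.

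**Figure D2:**
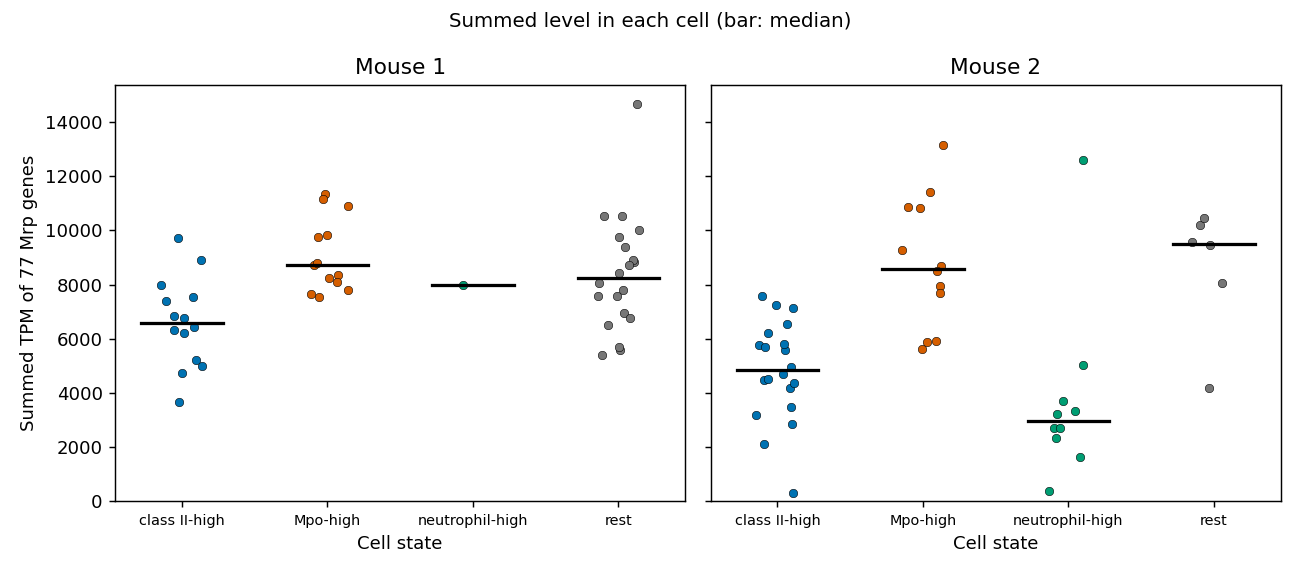
Each point is the summed TPM of the 77 Mrp genes in 1 cell, by state and mouse, and the bar is the median. Mpo-high medians are 8735 TPM (mouse 1) and 8588 TPM (mouse 2), class II-high medians 6596 and 4830 TPM, and the points overlap between states.

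Gene by gene, differences were taken between means of log2(TPM + 1), and a member was counted when it differed by 1 or more on this scale. Of the 77 members, 43 were counted lower in class II-high cells than in the rest in mouse 1, where 30.2% of all 11015 genes averaging at least 1 TPM were (41.7% of the 7210 with 10 TPM or more). In mouse 2 it was 52 members, against 38% and 47.5%. The members counted higher were 4 in mouse 1 (8.52% and 11.7% of genes) and 2 in mouse 2 (7.82% and 11%). In both mice 31 members (20 large, 10 small, and Mrps36) were lower, against 19.3% and 27.6% of genes, and 0 were higher, against 4.11% and 5.99%. The members' median difference was -1.13 (mouse 1) and -1.69 (mouse 2). For the genes averaging at least 10 TPM it was -0.72 and -0.89, and for oxidative phosphorylation -0.88 and -1.38. The cytosolic ribosome had -0.75 and -0.72. The median was -1.04 and -1.54 for the large and -1.35 and -1.97 for the small subunit.

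Mrpl34, a large-subunit protein (chromosome 8, 71464959 to 71465747), had the largest shared difference, -4.94 in mouse 1 and -3.75 in mouse 2. In mouse 1 it ranged from 0 to 73.8 TPM (median 0) in class II-high cells and from 0 to 877 TPM (median 144) in the rest. In mouse 2 it ranged from 0 to 521 TPM (median 1.01), and the 6 cells of the rest had 485, 220, 0, 193, 210 and 78.2 TPM. It was detected in 5 of 14 and 10 of 20 class II-high cells, against 18 of 20 and 5 of 6 of the rest, and the ranges overlapped.

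Mrps33, a small-subunit protein found only in mitochondria (chromosome 6, 39801804 to 39810988), differed by -2.58 and -5.17. Class II-high cells had 0 to 550 TPM (median 75.7) in mouse 1 and 0 to 1609 TPM (median 1.15) in mouse 2. The rest had 0 to 749 TPM (median 349), and in mouse 2 971, 167, 154, 757, 230 and 65.4 TPM. The highest single value was in a class II-high cell, although that state had the lower median.

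Mrpl33 differed by -2.49 and -2.67. It was detected in all cells of the rest, from 62.4 to 1636 TPM in mouse 1 and at 136, 62.2, 117, 317, 161 and 410 TPM in mouse 2. In class II-high cells it was detected in 11 of 14 and 13 of 20. Mrps28, a small-subunit protein (chromosome 3, 8802146 to 8923918), differed by -3.37 and -2.35, detected in 2 of 14 and 4 of 20 class II-high cells against 11 of 20 and 3 of 6. Mrpl50, of the large subunit, differed by -2.24 and -2.76.

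**Figure D3:**
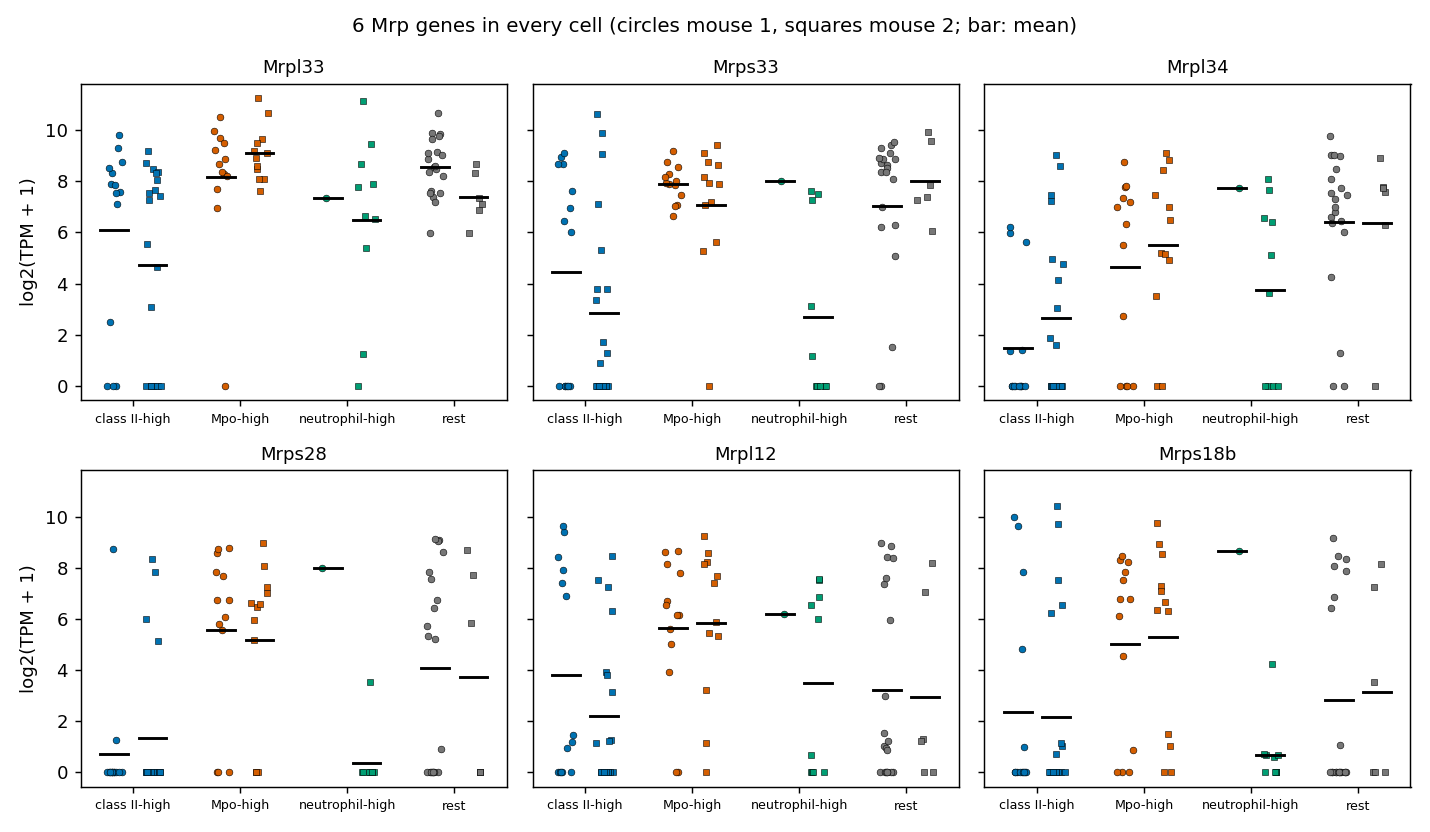
log2(TPM + 1) of 6 Mrp genes in every cell, by state, with circles for mouse 1, squares for mouse 2 and a bar at the mean of each group. Class II-high means lie under those of the rest for Mrpl33, Mrps33, Mrpl34 and Mrps28 in both mice, and many cells sit at 0.

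How far a member differed in one mouse said little about the other. Across the 77 members, the class II-high differences of mouse 1 and mouse 2 had a Spearman correlation of 0.14, against 0.51 over the 7210 genes, and 55 of 77 had the same sign (71.4%, against 73.6%). Mrps2 differed by -0.24 in mouse 1 and -6.43 in mouse 2, and Mrps18a by 0.71 and -4.33. Mrpl30 differed by 2.42 and -0.01. In mouse 2 the reference is 6 cells.

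The number of members detected in Mpo-high cells was 27 to 67 (median 52, mean 51.3) in mouse 1, against 26 to 62 (median 42.5, mean 42.2) in the rest. In mouse 2 it was 37 to 72, against 26 to 57 in the rest, and there the median was lower (49.5 against 53) and the mean higher (52.7 against 45.7). The groups overlapped in both mice. Detected genes had medians of 4463 and 4041. Of the 77, 32 were counted higher than in the rest in mouse 1 (21.8% of genes averaging at least 1 TPM, 29.4% with 10 or more) and 28 in mouse 2 (21.3% and 28%). Lower were 6 members in mouse 1 (5.68% and 7.63% of genes) and 14 in mouse 2 (15.5% and 17.9%). In both mice 14 were higher (7.57% and 11.1% of genes) and 0 lower (1.63% and 2.34%). The median difference was 0.74 and 0.55, against 0.38 and 0.25 for genes averaging at least 10 TPM.

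Mrpl12, the large-subunit protein of the stalk (chromosome 11, 120484613 to 120489065), was higher by 2.44 and 2.90. It ranged from 0 to 406 TPM (median 70.95) in Mpo-high cells of mouse 1 and from 0 to 606 TPM (median 114) in mouse 2, and the rest had medians of 1.20 and 1.43 TPM. Ranges overlapped, since the rest reached 512 and 291 TPM. Mrps18b was higher by 2.22 and 2.14, Mrpl16 by 2.81 and 2.05, Mrpl28 by 2.35 and 2.00 and Mrpl36 by 3.24 and 1.68. Mrps18b shares 638 exonic bases with an antisense gene. Mrpl28 was also lower in class II-high cells, by -2.20 and -2.45.

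On the lower side, the shared differences were smaller. Mrpl34 differed by -1.77 and -0.88, Mrpl14 by -0.47 and -0.85, Mrps34 by -0.41 and -1.86, Mrpl52 by -1.26 and -0.13, and Mrpl35 by -0.44 and -0.09. Mrps34 shares 763 exonic bases with Nme3 on its own strand and 1309 with Mapk8ip3 on the other. With all other cells of the mouse as the reference, a comparison added after the data were seen, Mrpl34 was higher by 1.06 and Mrpl14 by 0.88 on the mean of both mice. The agreement between mice was again low over members, with a Spearman correlation of 0.07 and 44 of 77 with the same sign.

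**Figure D4:**
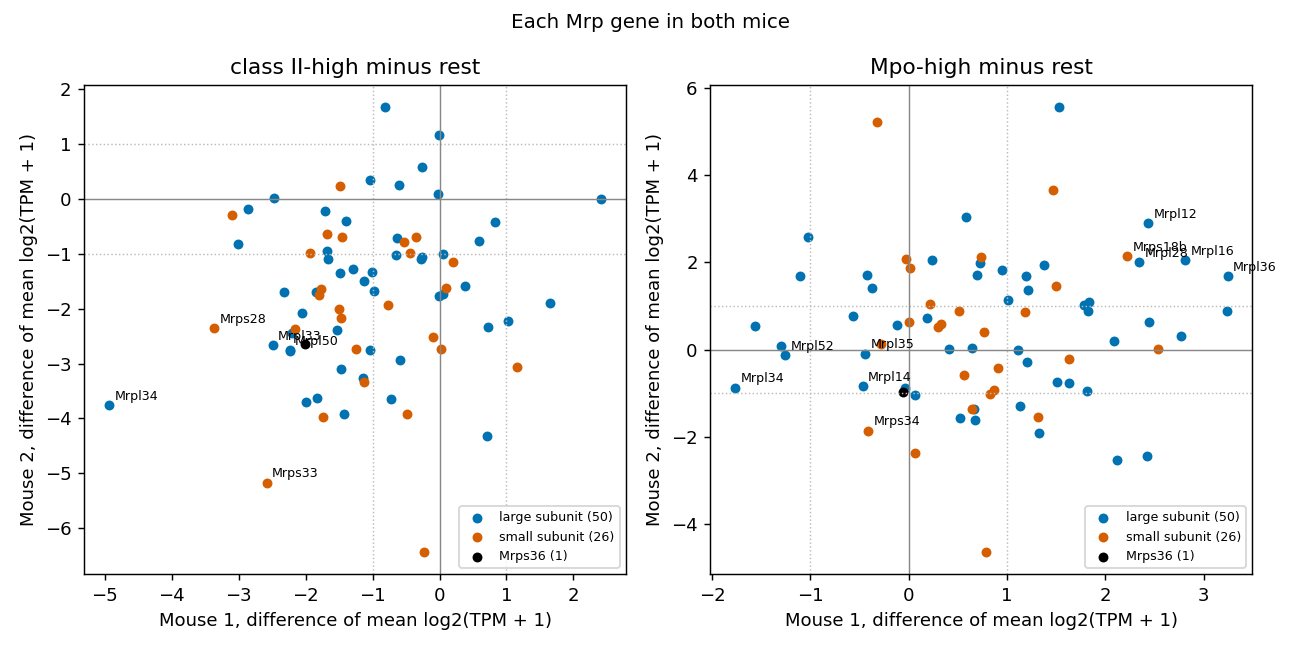
Each point is 1 of the 77 Mrp genes, with its difference from the rest (mean log2(TPM + 1)) in mouse 1 on the x axis and in mouse 2 on the y axis, for class II-high (left) and Mpo-high cells (right); dotted lines mark differences of 1. Most points on the left lie under 0 in both mice, and the spread along the 2 axes is nearly unrelated (Spearman 0.14 and 0.07).

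Neutrophil-high cells, present as a group only in mouse 2, ranged the widest. The 10 cells had 25, 37, 14, 10, 45, 3, 57, 23, 42 and 21 members detected. The summed levels, in the same order, were 3344, 3211, 1645, 2325, 5024, 376, 12598, 2725, 3708 and 2727 TPM. The cells with 45 and 57 members were the 2 that also had Mpo above 1000 TPM. Over the 10 cells S100a8 and the number of members had a Spearman correlation of -0.85, and S100a8 and the number of detected genes one of -0.81. TPM sums to a fixed total, and the 10 most abundant genes held a median of 54.8% of it in these cells. The median summed level was 2968.5 TPM, against 9503 TPM in the rest of mouse 2. With the 10 most abundant genes left out and the TPM rescaled, it was 6148 against 10504 TPM.

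Of the 77 members, 55 were counted lower than in the rest (36.1% of genes averaging at least 1 TPM, 45.6% with 10 or more) and 4 higher (10.3% and 12.7%). The median difference was -1.87, against -0.79 for the genes averaging at least 10 TPM and -3.23 for the cytosolic ribosome. Mrps2 differed by -6.87, Mrps33 by -5.34, Mrps18a by -3.96, Mrps16 by -3.95 and Mrpl2 by -3.84. Mrps2 was at 32.7 TPM at most, in 1 of 10 neutrophil-high cells, against a median of 316 TPM in the rest. On the other side were Mrpl44 (2.19), Mrps12 (1.84), Mrps30 (1.59), Mrpl18 (1.39) and Mrpl1 (0.86). Without the 2 cells that had Mpo as well, the members' median was -2.35 and Mrpl1 was at -0.46. Without the cell with the highest dendritic marker sum, which had 10 members detected, the median was -1.60.

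**Figure D5:**
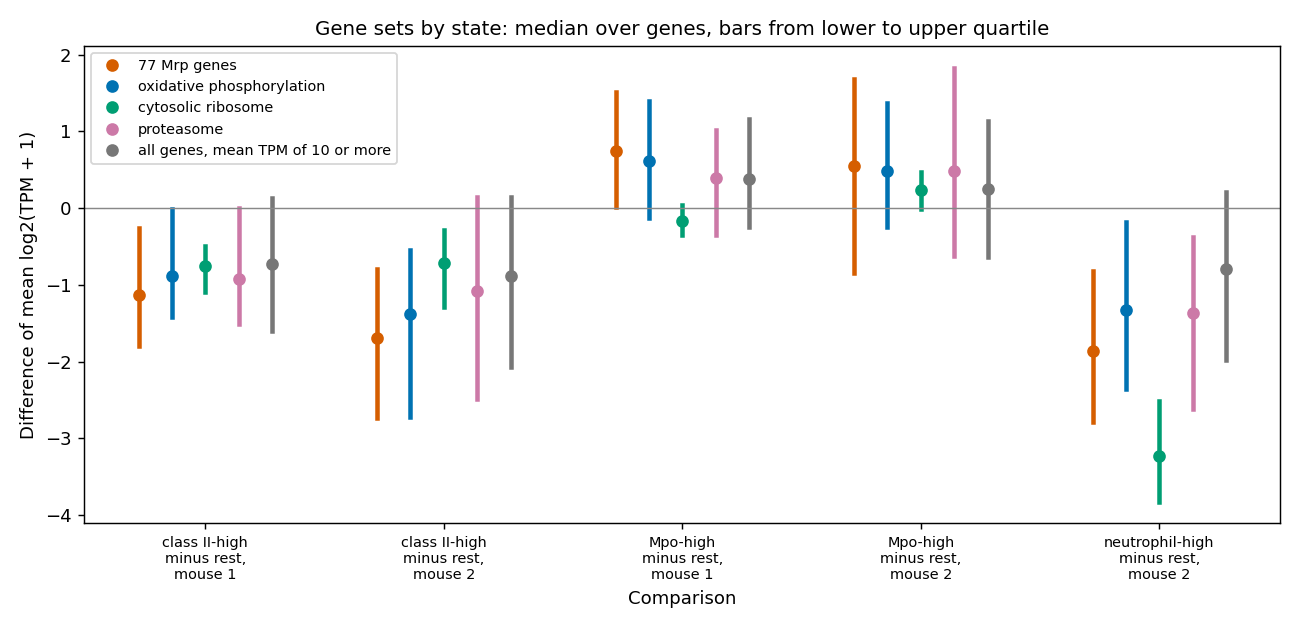
Median difference of mean log2(TPM + 1) over the genes of each set (points) with lower to upper quartile (bars), for 5 comparisons with the rest. The Mrp genes lie at -1.13 and -1.69 in class II-high cells, and the cytosolic ribosome is lowest in neutrophil-high cells, at -3.23.

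The members' differences were nearer 0 with the number of detected genes removed by a linear fit within each mouse, but not in every comparison restricted to cells of like number. With the fit, the members' median in class II-high cells was -0.17 and -0.02, beside -0.12 and 0.04 for the genes averaging at least 10 TPM. In Mpo-high cells it was -0.08 and 0.06, beside -0.03 and 0.06. In neutrophil-high cells it was -0.59, beside -0.20, and -2.46 for the cytosolic ribosome. Among cells with 2500 to 4500 detected genes, the members' median in class II-high cells was -0.77 and -0.70, beside -0.48 and 0 for those genes. In neutrophil-high cells it was -0.57, beside 0. In Mpo-high cells it was 0.49 in mouse 1 and 0.68 in mouse 2, beside 0.17 and 0.41, so in mouse 2 it was larger than over all cells (0.55). In mouse 2 the restriction left 3 cells in the rest. Whether a state has less of the mitochondrial ribosome per cell, or cells with less RNA show fewer genes of every kind, cannot be told apart here.

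The members were lower in mouse 2 over all cells. The median difference was -0.61 (-0.36 for genes averaging at least 10 TPM), and 24 were counted lower (11.6% of genes averaging at least 1 TPM, 17.6% with 10 or more) and 0 higher (1.59% and 2.37%). Mrps33 differed by -2.03, Mrpl20 by -1.83, Mrps18a by -1.77, Mrps12 by -1.63 and Mrpl4 by -1.55. Those higher were Mrps2 (0.79), Mrpl1 (0.71), Mrpl57 (0.56), Mrpl15 (0.31) and Mrpl24 (0.27). The mice had different shares of the states. Within class II-high cells the median was -0.35, within Mpo-high cells -0.16 and within the rest 0.18. In the other deposited table, which holds 66 of the members in RPKM, the median was -0.03, and for the same members it was -0.64 in TPM. There 41 of 66 had the same sign, and a member was at the lowest value of its row in a median of 93.75% of cells.

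Members varied together only weakly. The mean pairwise Spearman correlation among the 77 was 0.10 in mouse 1 and 0.20 in mouse 2, each over 48 cells, and 0.03 and 0.05 with detected-gene number removed. Between members and the other genes averaging at least 10 TPM it was then 0.02 and 0.03. Among genes of oxidative phosphorylation it was 0.06 and 0.06 and among proteasome genes 0.05 and 0.04, close to the members' values, and among cytosolic ribosome genes 0.18 and 0.40. The genes most like the members' mean, with detected-gene number removed, among 2021 candidates detected in at least 24 cells of each mouse, were Eif4a3 (mean Spearman correlation of both mice 0.43), Slc25a5 (0.41), Ndufb6 (0.41), Ppia (0.41), Oaz1 (0.40), Nop10 (0.40), Set (0.40), Cox17 (0.38), Rbm8a (0.38) and Pa2g4 (0.37). The mice differed in these, with values from 0.17 to 0.48 in mouse 1 and from 0.35 to 0.64 in mouse 2, and Oaz1 had 0.17 in mouse 1 and 0.64 in mouse 2. Slc25a5 codes for an ADP/ATP carrier of the inner mitochondrial membrane, Ndufb6 for a complex I subunit and Cox17 for a copper chaperone of complex IV. Of the genes named here, Ndufb6 alone belongs to the oxidative phosphorylation set, and a shared function among them was not tested. At the other end of the 2021 candidates, the lowest mean correlations were those of Grk4 (-0.38) and Stat3 (-0.37), of similar size.

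The ratio of the summed TPM of large-subunit to that of small-subunit members was also taken in each cell. Its median was 2.18 in mouse 1 and 2.31 in mouse 2. In class II-high cells it ranged from 1.19 to 18.7 and from 0.83 to 24.2, and in the rest from 0.998 to 5.51 and from 1.34 to 2.74. In Mpo-high cells it ranged from 1.40 to 3.67 and from 1.32 to 6.34, and in neutrophil-high cells from 1.06 to 297, where 2 cells with 10 and 3 members had nearly all of the sum in the large subunit.

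Proteins of the mitochondrial ribosome that carry other symbols were put on a list of 8, of which 7 were in the table. The 7 include Oxa1l, which is an insertase and not a ribosomal protein, and which is among those counted lower in both mice. In class II-high cells 6 of the 7 were counted lower in mouse 1 and 4 in mouse 2, with medians of -1.35 and -1.61. Of all genes averaging at least 1 TPM 30.2% and 38% were, and of those averaging at least 10 TPM 41.7% and 47.5%. Dap3, of the small subunit, differed by -1.77 and -1.84, Ptcd3 by -1.79 and -1.61, Chchd1 by -1.68 and -0.61, Aurkaip1 by -1.20 and -2.50, Oxa1l, the membrane insertase that receives the nascent chains, by -1.35 and -3.59, Gadd45gip1 by -1.18 and 1.56, and Ict1 by 0.11 and -0.86.

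Genes that serve the ribosome were counted lower in class II-high cells in shares near those of all genes averaging at least 1 TPM. Those shares were 30.2% in mouse 1 and 38% in mouse 2, and for genes averaging at least 10 TPM 41.7% and 47.5%. Of 25 assembly factors, 8 were lower by 1 or more in mouse 1 and 8 in mouse 2 (32% in each), with medians of -0.50 and -0.76. Dhx30, an RNA helicase, differed by -2.51 and -2.19, and Fastkd2 by -1.92 and -1.76. Mterfd1, the most abundant of the list, differed by 1.04 and -0.76. Of 13 translation factors, 3 and 6 were lower (23.1% and 46.2%), with Mtif2, the initiation factor, at -1.22 and -3.74, Guf1 at -0.67 and -3.07, and Tufm, the elongation factor, at -0.79 and -1.01. Of 17 mitochondrial tRNA synthetases, 5 and 7 were lower (29.4% and 41.2%). Tars2 differed by -2.43 and -3.70 and Nars2 by -0.88 and -3.13, while Lars2, detected in all 96 cells, differed by 0.03 and -0.19.

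Of 15 genes of mitochondrial transcription and RNA handling, 6 and 10 were lower (40% and 66.7%, against 30.2% and 38% of all genes). Among genes averaging at least 10 TPM, 41.7% and 47.5% were lower, so the share in mouse 1 was not above that base. Ssbp1, the single-stranded DNA-binding protein, differed by -3.15 and -4.04, Hsd17b10, a subunit of mitochondrial RNase P, by -2.98 and -3.20, and Slirp by 0.30 and -2.38. Of 9 regulators of mitochondrial biogenesis, 3 and 4 were lower (33.3% and 44.4%). Gabpb1, a subunit of the ETS factor Gabp, differed by -3.78 and -3.16, Myc by -3.07 and -3.82 and Mycn by -5.44 and -5.72. Gabpa, the DNA-binding subunit of Gabp, differed by 0.30 and 0.65, Nrf1 by -0.14 and -0.54 and Yy1 by -0.71 and 0.07. These genes were picked after their values were seen, for the strings set in capitals above. Gabpa was detected in only 26 cells of both mice together, Nrf1 in 21 and Yy1 in 32. Other ETS factors were not on the list. A link between the levels of these regulators and the strings was not tested. Of 16 cell cycle genes, 13 and 16 were lower (81.3% and all), with Pcna at -3.71 and -6.45 and Mcm6 at -4.41 and -5.16. Across cells, the members' mean and the cell cycle genes' mean had a Spearman correlation of 0.70 and 0.63, and 0.09 and -0.22 with detected-gene number removed.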

How the data were processed

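The TPM values, for 23955 gene symbols, were made by the authors with RSEM, per the name of the deposited table, and sum to 1000000 in each of the 96 cells. The deposited RPKM values, for 9310 gene identifiers, carry the name AltAnalyze. The tools Bowtie2, RSEM and TopHat2 and the builds mm9 and mm10 are named per the submitters' processing notes; which belongs to which table, and the versions, are not given in the sources used here. Columns were matched to cells by name, and 0 were left over.

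Levels were taken as log2(TPM + 1), which understates the change of low genes, with detection at 1 TPM, states at 1000 TPM, and a state needing at least 3 cells in a mouse. Differences are of means over cells. Cells of 1 animal are not replicates, so no difference between states or mice was tested; only the gap of the highest and lowest cell within a group of up to 10 cells was set against Dixon's critical value. Scripts used Python 3.11.15 with numpy 2.4.6 and pandas 2.3.3 and were tested on simulated data. Gene positions are from GENCODE and promoters from RefSeq, both on GRCm38. The members, lists and states were chosen with earlier results of these data known. Named members were the 10 with the highest mean TPM, the 3 nearest the threshold, the 5 detected in most cells, and up to 5 in each direction per comparison, ranked for the states of both mice by the smaller absolute difference among members of the same sign. Of the other lists, the most abundant gene and the 2 with the largest class II-high difference were named. Gabpa, Nrf1 and Yy1, Mrpl30, and Mrps2 and Mrps18a among the class II-high differences, were chosen after their values were seen, as were the base of genes averaging at least 10 TPM and the promoter strings. Alternatives covered the pseudocount, the filter, rescaled TPM, detected-gene number, the state threshold, cells with more than 1 marker, 2 neutrophil-high cells left out singly, each mouse alone and the RPKM table.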

Additional observations from a re-analysis of the deposited data

Results flagged for a closer look

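Among the 10 neutrophil-high cells of mouse 2, 1 cell stood apart in the summed level of the members, at 12598 TPM against 376 to 5024 TPM in the other 9. The gap to the nearest cell was 0.62 of the whole range, above the 95% critical value of 0.466 for 10 values, which chance passes in about 1 in 20 groups. It was the only 1 of 16 such gaps above its critical value (4 measures, highest and lowest cell, in the 2 groups of 4 to 10 cells), and the values come from cells of 1 mouse. That cell had 57 members detected, 26570 TPM of S100a8 (the lowest of the 10) and 20561 TPM of Mpo. Without it the members' median difference from the rest was -2.14 in place of -1.87, and without it and the other cell that had Mpo it was -2.35.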

How the results depend on the processing

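The median class II-high difference, -1.41 on the mean of both mice, was -1.99 with a pseudocount of 0.1 TPM, -0.79 with 10 TPM, -0.73 among cells with 2500 to 4500 detected genes and -0.094 with detected-gene number removed. The Mpo-high median (0.64) was 0.93 and 0.31 with these pseudocounts, 1.41 against all other cells, 0.59 among cells with 2500 to 4500 detected genes and -0.0082 with detected-gene number removed, a change of sign. The neutrophil-high median (-1.87) was -0.99 with a pseudocount of 10 TPM, -0.59 with detected-gene number removed, -0.57 among cells with 2500 to 4500 detected genes and -0.69 against all other cells. The mouse difference (-0.61) was -0.37 with a pseudocount of 10 TPM, -0.12 as the mean within 3 states and -0.032 in RPKM. It was -0.23 with detected-gene number removed, here by a linear fit over the cells of both mice together. The large-to-small ratio (2.24) was 1.93 with subunits taken from the symbols. All other cells as reference, the mean within states and the single neutrophil-high cells left out were chosen after seeing the data.

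Each mouse alone gave -1.69 to -1.13 for class II-high and 0.55 to 0.74 for Mpo-high cells. The filter on mean TPM changed no member. Of 424 values of named members under an alternative, 414 kept their sign. Of these, 118 moved, 53 by at least the spread between the mice (1 SD) and 65, in comparisons with 1 value, by over 1.5 times. The 424 include values that could not change sign. The filters on mean TPM kept every member, and for each mouse alone the naming rule had fixed the sign. The values that changed sign were, against all other cells, Mrpl34 (1.06), Mrpl14 (0.88), Mrps34 (0.58) and Mrpl35 (0.43) in Mpo-high and Mrpl18 (-0.45) in neutrophil-high cells, Mrpl1 (-0.46) in neutrophil-high cells without those of more than 1 marker, and in RPKM the mouse differences of Mrpl20 (0.020), Mrps18a (0.035), Mrpl15 (-0.36) and Mrpl24 (-0.053). The cause of these changes was not tested. No paired analysis was possible because the mice share no cell numbers. Depth is unknown, so an exact 0 is only a value listed at 0.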
